A study of Homo sapiens with 6 samples.

Results

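Major histocompatibility complex (MHC) class II genes and their transactivator CIITA were examined in a human leukaemia line, Kasumi-1, which is of acute myeloid origin and carries the t(8;21) translocation. The set comprised 6 genes chosen by name from the 7983 genes of the deposited table: HLA-DRA, HLA-DPA1, HLA-DPB1, HLA-DMB, CD74 and CIITA. All 6 were in the table, and they were picked with their difference between the groups already known, so their values are a description and carry no test. Polyadenylated RNA was sequenced from SETD8 knockout cells made with CRISPR/Cas9 (sgSETD8, 3 libraries) and from wild-type cells carrying a non-targeting guide (sgNT, called control, 3 libraries). All libraries came from the one line in standard medium with serum, and the labels state neither a time after editing nor whether the numbered libraries are separate guides, clones or cultures, so the spread between them may be technical. The authors' deposited table lists genes up to an unadjusted p of 0.049998, and genes outside it were not analysed here.

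MHC class II molecules carry peptides from the endosomal pathway to the surface of antigen-presenting cells, where CD4+ T cells read them. Each is a pair of an alpha and a beta chain that is assembled on the invariant chain, the product of CD74, and loaded with peptide under the control of HLA-DM. Their genes share a promoter module bound by the RFX, CREB and NF-Y factors. CIITA, which does not bind DNA itself, docks on that module and is the limiting activator in most cells. Class II is usually found on B cells, dendritic cells, monocytes and many myeloid leukaemia cells.

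The targeted gene was lower in the libraries labelled as knockout. KMT5A, the current symbol of SETD8, read 880, 933 and 939 normalized counts in the knockout libraries, against 1191, 1212 and 1255 in the control libraries. Genes known for t(8;21) leukaemia cells were present, with 11 of 12 listed in the table, of which 7 rose, 2 fell and 2 were not called. Over all tested genes 47.3% were called higher and 46.7% lower. KIT, a receptor kinase, fell to 43551 normalized counts in knockout cells, against 60704 in control cells, and MPO, myeloperoxidase, fell to 1541, against 12254. RUNX1, a partner in the fusion of this leukaemia, rose to 6691 in knockout cells, against 4262 in control cells. Its log2 fold change was 0.65, and the median of the tested genes within 5 Mb of it was 0.46. Reads in the listed genes ranged from 11721821 to 12557974 in knockout and from 10966349 to 11690249 in control libraries.

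CIITA was lower in knockout cells and so were the antigen-presenting chains HLA-DRA and HLA-DPB1, while the invariant chain gene CD74 and the peptide editor gene HLA-DMB were higher. The groups did not overlap for 5 of the 6 genes, 3 of them lower and 2 higher in knockout libraries. Of all 7516 tested genes, 95.4% had groups that did not overlap, 48.0% with the knockout higher and 47.4% with it lower, so the count reads as that of any genes in a table selected for difference. All 6 reached the minimum set for testing, an average of 10 normalized counts, but 3 of them (HLA-DRA, HLA-DPB1 and HLA-DMB) reached 10 in only one group. In a bulk library, fewer cells with a transcript and less of it per cell cannot be told apart.

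CIITA (ENSG00000179583, hg38 chromosome 16, 10866222 to 10943021, plus strand) encodes the class II transactivator. It read 80.3, 74.5 and 85.9 normalized counts in the knockout libraries, against 292, 285 and 292 in the control libraries. All 3 knockout libraries lay far under all 3 control libraries, and both groups were tight. The means were 80.2 ± 5.72 in knockout and 289.8 ± 4.29 in control cells (SD, n = 3 each), a 3.61-fold lower level and a log2 fold change of -1.84 on the log2(value + 1) scale. Transcripts of CIITA start from several alternative promoters, which counts per gene do not separate. Its exons share 2416 bases, 11.6% of its exonic length, with DEXI on the opposite strand, and DEXI fell by 0.61 on the log2 scale (limma-trend adjusted p = 0.035), so reads in that stretch are uncertain where counting ignored strand. A further 2378 exonic bases lie in AC133065.3, an annotated gene on the same strand that is outside the table, so reads there could belong to either gene.

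HLA-DRA (ENSG00000204287, chromosome 6, 32439842 to 32445046, plus strand) encodes the alpha chain shared by all HLA-DR molecules. It read 1.04, 0 and 2.80 normalized counts in the knockout libraries, against 96.1, 128 and 119.9 in the control libraries. The knockout libraries were at or close to 0, and the transcript was clearly present in every control library. In whole reads this was 4 over the knockout libraries and 347 over the control libraries, a ratio of knockout to control of 0.0114. Counting error alone puts this ratio between 0.0031 and 0.0296 (exact 95% binomial bounds). The log2 fold change was -5.86, a value that the pseudocount sets in part, since it was -4.27 with a pseudocount of 5.

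HLA-DPB1 (ENSG00000223865, chromosome 6, 33075926 to 33087201, plus strand), the beta chain of HLA-DP, read 3.13, 3.97 and 1.87 in the knockout libraries, against 29.6, 32.1 and 29.7 in the control libraries. It was thus low in controls and almost absent in knockout libraries, with 9 reads in all there and 92 in control libraries. The read ratio of knockout to control was 0.0971 (exact 95% binomial interval 0.0431 to 0.193), and the log2 fold change was -3.02. HLA-DPA1 (ENSG00000231389, chromosome 6, 33064569 to 33080775, minus strand), the alpha chain that pairs with it, read 88.6, 69.5 and 47.6 in the knockout libraries, against 114, 73.9 and 123 in the control libraries. Here the groups overlapped, since knockout 1 was above control 2, and both groups were widely spread. The log2 fold change of HLA-DPA1 was -0.60 (-0.36 without knockout 3), against an SD between libraries of 0.44 in knockout and 0.39 in control cells. Its unadjusted p in the authors' deposited table was 0.0481, just inside the limit for being listed. The paired DP chains therefore differed in how far apart their groups stood. Within each library, the level per kilobase of HLA-DPA1 was 13.8, 8.50 and 12.4 times that of HLA-DPB1 in knockout cells, against 1.88, 1.12 and 2.01 times in control cells. The DP genes lie head to head and their annotated spans overlap by 4850 bases on opposite strands, of which 96 bases are exonic in both.

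Of 11 other class II chain and editor genes written in a list, which included the HLA-DRB, HLA-DQ and HLA-DO genes and HLA-DMA, HLA-DQA1 alone was in the table. HLA-DQA1, the alpha chain of HLA-DQ, read 0 in every knockout library, against 13.3, 0.97 and 3.96 in the control libraries. With 18 control reads and none in knockout libraries, it was at least 6.04-fold lower against a floor of 3 reads over the group. It was too low to be tested, and control 1 held 13 of its 18 reads. HLA genes differ between people in sequence, and the counter used was not stated, so the levels of genes with near-identical copies are uncertain. The antigen-presenting chains HLA-DRA, HLA-DPA1, HLA-DPB1 and HLA-DQA1 summed to 92.8, 73.5 and 52.3 normalized counts in the knockout libraries, against 253, 235 and 276 in the control libraries.

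CD74 (ENSG00000019582, chromosome 5, 150401637 to 150412929, minus strand) encodes the invariant chain, the chaperone that occupies the peptide groove of new class II molecules and also a surface receptor for the cytokine MIF. It read 1403, 1147 and 1259 in the knockout libraries, against 527, 560 and 542 in the control libraries. Each knockout library held more than each control library, and the knockout libraries varied more. The means were 1270 ± 128 in knockout and 543 ± 16.4 in control cells (SD, n = 3 each), a 2.34-fold higher level and a log2 fold change of 1.22. CD74 and CIITA thus lay in opposite directions.

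HLA-DMB (ENSG00000242574, chromosome 6, 32934629 to 32941070, minus strand) encodes the beta chain of HLA-DM, which removes the invariant chain fragment from class II and edits its peptides. It read 12.5, 25.8 and 26.1 in the knockout libraries, against 1.02, 1.94 and 6.94 in the control libraries. All values were low, and the lowest knockout library stood above the highest control library. There were 66 reads over the knockout and 10 over the control libraries, a ratio of 6.55 (exact 95% binomial interval 3.35 to 14.3), and the log2 fold change was 2.57. HLA-DMB shares 438 exonic bases with an overlapping annotated gene on the same strand, so part of its reads could belong to either. HLA-DMA, the alpha chain that it needs, was outside the table.

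**Figure D1:**
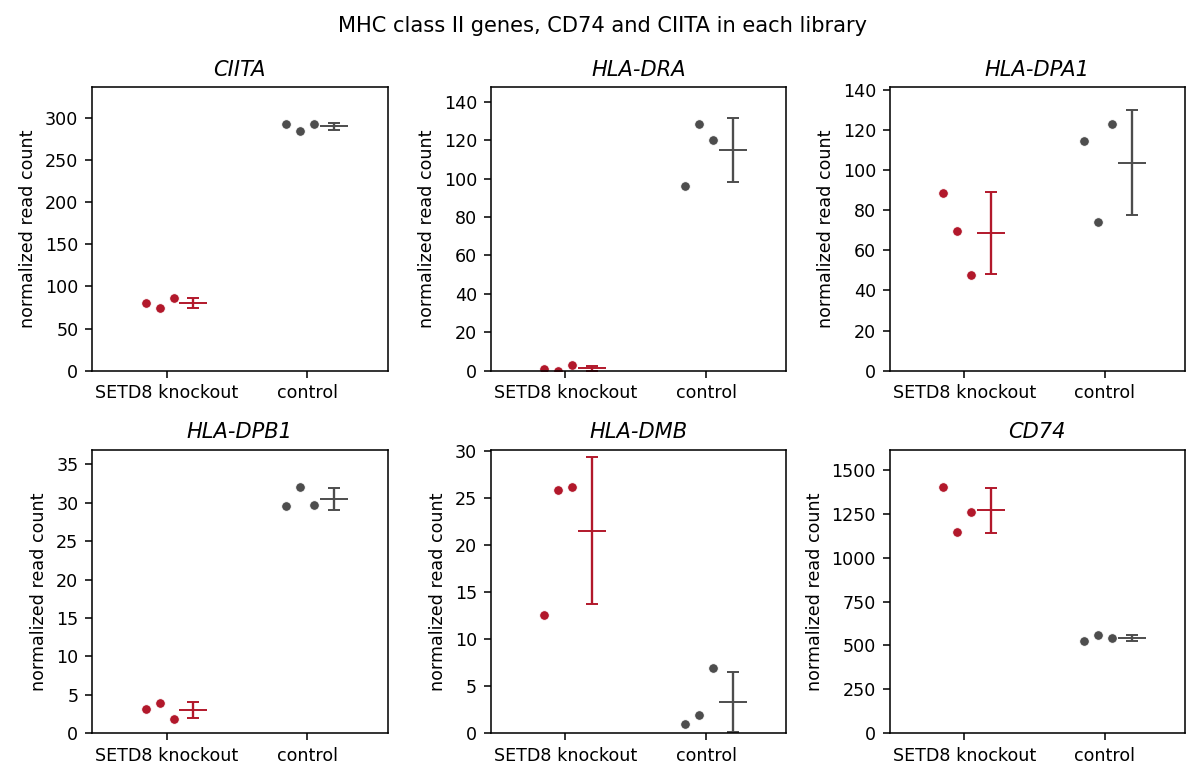
Normalized read counts (vertical axes, each starting at 0) of CIITA, the class II chains and CD74 in the SETD8 knockout libraries (left, red) and control libraries (right, grey). Points are libraries, and the bar and whiskers are the mean and SD of 3 libraries. CIITA, HLA-DRA and HLA-DPB1 are lower and HLA-DMB and CD74 higher in every knockout library, and HLA-DPA1 overlaps.

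Per kilobase of annotated exon, the order of the levels differed between the groups. In knockout cells CD74 stood at 399 ± 40.3 normalized counts per kilobase, followed by HLA-DPA1 at 11.9 ± 3.57, HLA-DMB at 4.62 ± 1.67, CIITA at 3.86 ± 0.276, HLA-DPB1 at 1.07 ± 0.379 and HLA-DRA at 1.00 ± 1.11. In control cells CD74 stood at 171 ± 5.15, HLA-DRA at 89.7 ± 13.1, HLA-DPA1 at 18.05 ± 4.56, CIITA at 13.96 ± 0.207, HLA-DPB1 at 10.9 ± 0.497 and HLA-DMB at 0.709 ± 0.684 (SD, n = 3 in both groups). HLA-DRA was thus second to CD74 in control cells and last in knockout cells. Neighbours in the order that differed by less than the SD of one of them were HLA-DMB and CIITA, and HLA-DPB1 and HLA-DRA, in knockout cells, and HLA-DPA1 and CIITA in control cells. The exon length used for each gene sums all its annotated transcripts, 20757 bases for CIITA and 1280 for HLA-DRA. A level per kilobase is thus a low estimate where single transcripts are shorter, as for CIITA. The order of the levels between genes is therefore rough. Within a library, CD74 per kilobase was 541 and 181 times HLA-DRA in knockout 1 and 3, with HLA-DRA listed at 0 in knockout 2, against 2.21, 1.75 and 1.82 times in the control libraries.

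The stretches before the annotated starts of 4 class II or invariant chain genes are shown because these genes are known for the module on which CIITA docks, and their levels lay in opposite directions. They are RefSeq sequences of GRCh38.p14, given 5′ to 3′ on the strand of the gene and ending where annotated exon begins. Capitals mark ATTGG or its reverse complement CCAAT, the core of the Y box that NF-Y binds, and in HLA-DQA1 also a match to GNAAC, part of the X box, that lies 25 to 32 bases before an ATTGG. HLA-DQA1 lies at chr6:32637156-32637356 (plus strand), HLA-DPB1 at chr6:33075740-33075925 (plus strand), HLA-DMB at chr6:32941071-32941278 (minus strand) and CD74 at chr5:150412930-150413160 (minus strand).
HLA-DQA1: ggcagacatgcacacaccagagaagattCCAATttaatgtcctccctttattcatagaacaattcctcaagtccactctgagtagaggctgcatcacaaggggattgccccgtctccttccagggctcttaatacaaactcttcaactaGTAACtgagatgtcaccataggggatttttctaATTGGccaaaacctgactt
HLA-DPB1: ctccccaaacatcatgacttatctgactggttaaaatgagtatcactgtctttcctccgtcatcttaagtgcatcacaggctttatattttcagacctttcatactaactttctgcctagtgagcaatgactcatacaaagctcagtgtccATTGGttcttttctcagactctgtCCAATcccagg
HLA-DMB: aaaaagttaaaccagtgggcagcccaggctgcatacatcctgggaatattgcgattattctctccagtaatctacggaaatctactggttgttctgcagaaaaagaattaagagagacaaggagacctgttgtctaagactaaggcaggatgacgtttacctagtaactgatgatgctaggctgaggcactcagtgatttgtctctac
CD74: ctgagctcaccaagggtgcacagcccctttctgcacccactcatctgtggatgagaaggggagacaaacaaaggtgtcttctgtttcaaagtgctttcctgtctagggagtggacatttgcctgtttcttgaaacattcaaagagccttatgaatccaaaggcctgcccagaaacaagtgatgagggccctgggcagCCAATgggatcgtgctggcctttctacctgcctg
Of the 6 genes, 4 had an entry in the promoter table (HLA-DPA1 with separate starts), and HLA-DRA and CIITA had none.

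Within 250 bases before the start, ATTGG on either strand was found in 32.01% of 35116 promoters. Distances are counted from the RefSeq start, and the printed stretches end before it, so the capitals lie closer to the printed ends. HLA-DQA1 had a match 222 and another 68 bases before its start, and HLA-DPB1 99 and another 75 bases before its start. CD74 had one at 53 bases and HLA-DMB one at 22 bases, the last in exonic bases that are not printed. Neither HLA-DPA1 window held one. The paired form, GNAAC followed after 25 to 32 bases by ATTGG and searched on both strands, was found in 0.980% of all promoters. Among 14 windows of 13 genes, CD74 and the class II genes with an entry, 4 held the paired form, those of HLA-DRB1, HLA-DRB5, HLA-DQA1 and HLA-DOA. Among the 4 genes printed, only HLA-DQA1, which is outside the chosen set, held it. No window of HLA-DPB1, HLA-DPA1, HLA-DMB or CD74 did, whether the gene was lower or higher in knockout libraries. The HLA-DPA1 stretches are not printed. A link between the paired form and the levels was not tested. A match is a description of letters. In the windows of HLA-DPB1, HLA-DMB and CD74 this spelling was not found, with a gap of 25 to 32 or of 20 to 40 bases. The HLA-DMB stretch holds gtaac and the CD74 stretch gaaac, GNAAC matches left unmarked because no ATTGG follows at these gaps. In CD74 the marked CCAAT, the reverse complement, follows gaaac. The search thus does not show that the module is absent, and its presence in another spelling or orientation was not tested.

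The factors that bind this module changed in both directions. Of 8 genes in the list, 5 were tested and all 5 were called, 2 higher and 3 lower. The median log2 fold change was -0.24 (0.14 over all tested genes). Of all tested genes 94.1% were called at a limma-trend adjusted p below 0.05, with 47.3% higher and 46.7% lower. With the median of neighbouring genes removed, 2257 were called higher and 2449 lower, in place of 3557 and 3513. RFX5, a DNA-binding subunit of the RFX complex, fell to 1895 ± 60.6 in knockout cells, against 2317 ± 97.1 in control cells, a log2 fold change of -0.29 (SE 0.06, limma-trend adjusted p = 5.23e-04). RFXAP, another RFX subunit, rose by 0.66 and RFXANK, the third, by 0.24. CREB1 and ATF1, which bind the X2 box, fell by 0.24 and 0.32. With the median of neighbouring genes removed, CREB1 turned to 0.27 and RFXANK to -0.040, and CREB1 was not called without knockout 1 (-0.20) or control 3 (-0.21).

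In a list of coactivators, corepressors and chromatin modifiers linked to CIITA, most tested genes were lower in the main setting only. All 14 tested genes of 16 written were called, 4 higher and 10 lower, with a median of -0.24. Over all tested genes 94.1% were called, 46.7% lower. With the median of neighbouring genes removed, 5 of the list were lower and 4 higher. CREBBP, a histone acetyltransferase, fell to 609 ± 85.2 in knockout cells, against 1324 ± 73.7 in control cells (log2 fold change -1.13, SE 0.09, limma-trend adjusted p = 8.10e-10). KAT2B, the acetyltransferase PCAF, fell by 0.99, SIN3A, a corepressor scaffold, by 0.65, and NCOA3, a nuclear receptor coactivator, by 0.60. CREBBP lies on chromosome 16, as CIITA does. NCOA3 lost its call with the median of neighbouring genes removed (-0.15).

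Interferon-gamma induces CIITA through its receptor and JAK kinases. Of 16 genes of that route 6 were tested and all were called, 2 higher and 4 lower, with a median of -0.36. The called share over all tested genes was 94.1%. IFNGR2, a receptor chain encoded on chromosome 21, rose to 1008 ± 133 in knockout cells, against 468 ± 45.0 in control cells (log2 fold change 1.10, SE 0.10, limma-trend adjusted p = 5.58e-09). IRF2, an interferon regulatory factor that acts on CIITA, fell by 0.42, and SOCS3, a feedback inhibitor, by 0.72. The count of higher genes was 1 without knockout 2, control 2 or control 3, and SOCS3 lost its call with the median of neighbouring genes removed (-0.31).

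Lineage factors that act on CIITA promoters went both ways. Of 14 genes 8 were tested, with 3 higher, 4 lower and 1 not called, and a median of -0.35. The shares over all tested genes were 47.3% higher and 46.7% lower. SPI1, the myeloid and B cell factor PU.1, rose to 3563 ± 134 in knockout cells, against 2474 ± 134 in control cells (log2 fold change 0.53, SE 0.06, limma-trend adjusted p = 2.04e-07). STAT5B fell to 2810 ± 87.1 in knockout cells, against 5148 ± 99.0 in control cells, a log2 fold change of -0.87, and STAT5A and FOXO1 fell by 0.60 and 0.52. STAT5A and FOXO1 lost their calls with the median of neighbouring genes removed (-0.081 and -0.28), and the higher count was 1 there. With the same median removed, SPI1 was at 0.17 and STAT5B at -0.36. The gene not called was RELA, an NF-kappaB subunit, at 1476 ± 130 in knockout and 1663 ± 131 in control cells, named after its value was seen.

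Most tested genes that prepare peptides for class II rose. Of 18 processing genes 11 were tested, with 10 higher, 0 lower and 1 not called, and a median log2 fold change of 0.75. Over all tested genes the median was 0.14, with 94.1% called and 47.3% called higher. CTSB, the lysosomal protease cathepsin B, rose to 4335 ± 119 in knockout cells, against 2159 ± 179 in control cells (log2 fold change 1.01, SE 0.06, limma-trend adjusted p = 1.80e-11). CTSF, a cathepsin that can cleave the invariant chain, rose by 0.96, SPPL2A, the membrane protease that removes the last invariant chain stub, by 0.96, and CTSZ, another cathepsin, by 0.86. The gene not called was CD82, a tetraspanin of class II compartments, at 36.4 ± 5.00 in knockout and 60.1 ± 16.3 in control cells, and it was named after its value was seen. Without control 2, 1 gene of the list was lower. At an unadjusted limma-trend p below 0.05 the lower count was 1, and edgeR and DESeq2 gave 0 after adjustment.

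Most tested costimulatory and adhesion genes, which act beside class II at the surface, rose. Of 16 written, 8 were tested, with 7 higher and 1 lower and a median of 0.84, against 0.14 over all tested genes, of which 47.3% were called higher. The higher count was 5 with the median of neighbouring genes removed. CD4, the class II co-receptor that myeloid cells also express, rose to 3850 ± 193 in knockout cells, against 1761 ± 117 in control cells (log2 fold change 1.13, SE 0.06, limma-trend adjusted p = 2.59e-12). CD58 and ICAM1, ligands of T cell adhesion receptors, rose by 0.84 and 0.83, and CD40, the receptor for CD40 ligand, by 0.83. The lower gene was TNFSF4, which encodes OX40 ligand, at 32.9 ± 5.32 in knockout and 64.1 ± 5.78 in control cells, named after its value was seen.

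Genes for the surface turnover of class II and for CD74 signalling were few in the table. In the turnover list 4 of 11 were tested, with 3 higher and 1 lower, where 47.3% of all tested genes were called higher. MARCH1, the ubiquitin ligase that drives class II internalisation, rose by 0.48 (limma-trend adjusted p = 0.015), and CD83, which opposes that ligase, by 0.31. AP2S1 and AP2B1, subunits of the AP-2 endocytic adaptor, rose by 0.40 and fell by 0.30. With the median of neighbouring genes removed, AP2B1 turned to 0.20 and MARCH1 (0.18), CD83 (0.11) and AP2S1 (0.12) lost their calls, and MARCH1 also lost it without knockout 3 (0.42) or control 2 (0.41). Of 6 MIF and CD74 partner genes 2 were tested. CD44, the co-receptor through which CD74 signals, fell to 16382 ± 518 in knockout cells, against 19928 ± 714 in control cells, a log2 fold change of -0.28. CXCR2, a chemokine receptor that can pair with CD74, rose by 0.65, a call that ended without control 3 (0.53).

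**Figure D2:**
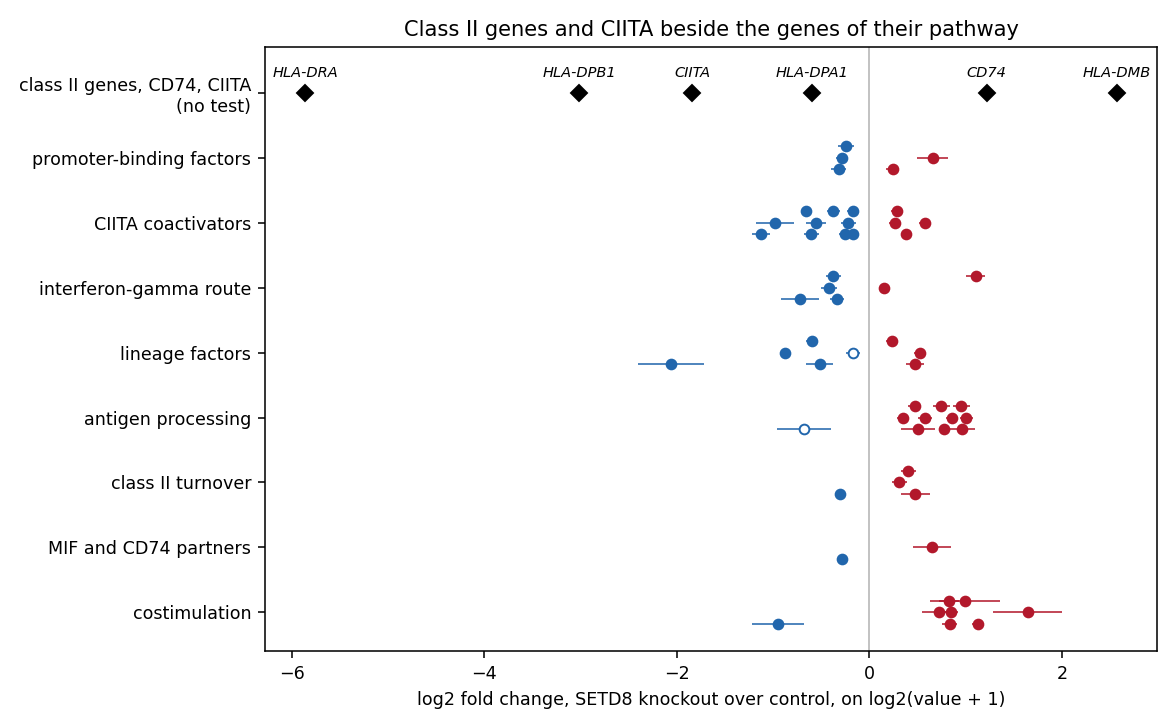
Log2 fold change (horizontal axis, log2(value + 1) scale), SETD8 knockout over control. Black diamonds are the 6 class II, CD74 and CIITA values, with no test, and circles are the tested genes of each pathway list with their SE, filled where called, red above 0 and blue under 0. Values run from -5.86 for HLA-DRA to 2.57 for HLA-DMB, and the antigen processing and costimulation circles lie mostly to the right of 0.

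The neighbourhoods of these genes differed. Within 5 Mb of CIITA, 26 other genes were tested, and all 26 had a log2 fold change under 0, with a median of -0.71 and 25 called lower. CIITA was further from 0 than all but 1 of them, ABAT at -2.25, named after its value was seen. On each side of CIITA, C16orf72, USP7 and CARHSP1 and then DEXI, CLEC16A and RMI2 were the nearest tested genes. RMI2, a subunit of a DNA repair complex, fell to 126 ± 4.58 in knockout cells, against 379 ± 27.2 in control cells (limma-trend adjusted p = 1.97e-09), and CLEC16A, a regulator of mitophagy, fell to 477 ± 53.7, against 777 ± 81.9. With the median of its neighbours removed, the log2 fold change of CIITA was -1.13. The part of this region in the level of CIITA was not tested.

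Around HLA-DRA the genes went both ways. Within 5 Mb, 78 genes outside the chosen set were tested, of which 37 were under 0 and 41 above, with a median of 0.17. The lowest of these was HSPA1B at -2.53, named after its value was seen, and none lay as low as HLA-DRA. HLA-DPB1 at -3.02, which is not counted among them, lay lower than HSPA1B. Apart from the class II genes, the nearest tested genes before HLA-DRA were RNF5, PPT2 and ATF6B, and those after it were TAP2, PSMB8 and COL11A2. TAP2, a subunit of the peptide transporter for class I, rose to 901 ± 41.1 in knockout cells, against 594 ± 17.9 in control cells (limma-trend adjusted p = 2.28e-06), and PSMB8, an immunoproteasome subunit, rose to 1351 ± 122, against 960 ± 60.2. HLA-DMB and the DP genes lie in the same stretch, so genes in opposite directions stood side by side. Within 5 Mb of CD74, 19 of 26 genes were above 0, with a median of 0.26.

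**Figure D3:**
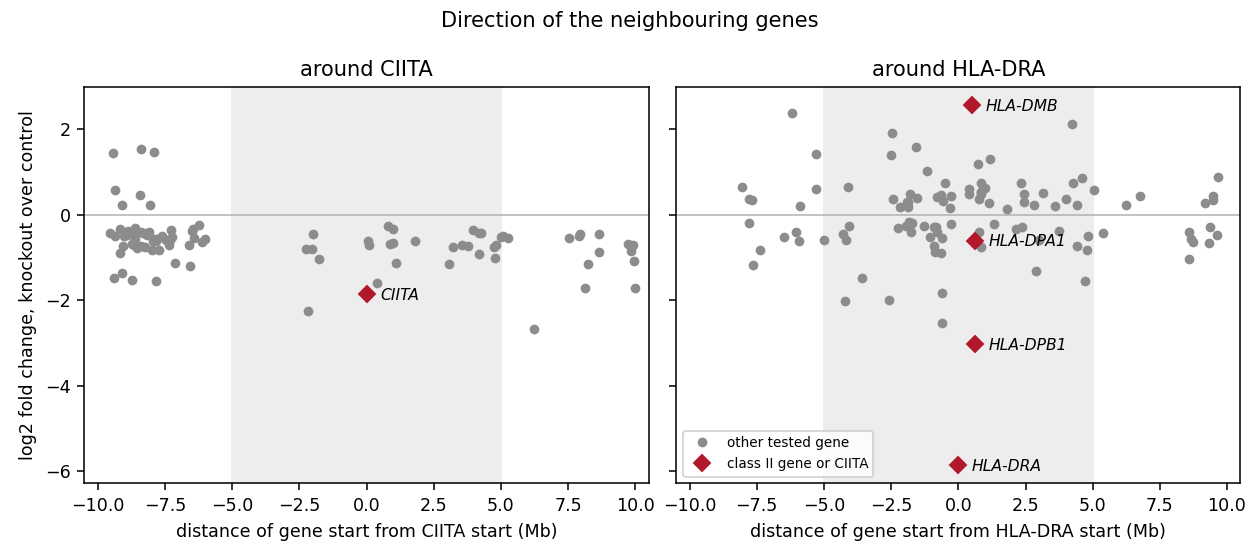
Log2 fold change of knockout over control (vertical axis) against the distance of each tested gene's start from the start of CIITA (left) and HLA-DRA (right) in Mb. Grey points are other genes, red diamonds the class II genes and CIITA, and the shaded band marks 5 Mb on each side. All 26 grey points in the band around CIITA lie under 0, and the band around HLA-DRA holds 37 grey points under 0 and 41 above.

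The genes most like HLA-DRA and CIITA over the 6 libraries were found by the root mean square difference of log2 values, each centred on its own mean. The 6093 candidates were protein-coding and averaged 100 normalized counts or more. Nearest to HLA-DRA were NEGR1, a neuronal adhesion molecule, at a difference of 0.25, SIPA1L2 at 0.46 and ZNF618 at 0.50. NEGR1 averaged 5.46 ± 5.23 in knockout and 293 ± 12.2 in control cells. Nearest to CIITA were JUN, a subunit of the AP-1 transcription factor, at 0.054, ADGRL3, an adhesion receptor, at 0.067 and NPR3, a natriuretic peptide receptor, at 0.076. JUN averaged 1499 ± 53.1 in knockout and 5380 ± 111 in control cells. The log2 fold change was -1.84 for both JUN and CIITA, and -5.87 for NEGR1 against -5.86 for HLA-DRA. The measure thus mostly matched the size of the change between the groups, the contrast by which the set was chosen. Shared regulation was not tested.

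Markers of cell types that carry class II did not move as one. Of 12 B cell markers 6 were in the table and all 6 rose, summing to 2124 to 2318 normalized counts in knockout and 1055 to 1301 in control libraries. Over all tested genes 94.1% were called, 47.3% higher and 46.7% lower, since the table was selected for difference. CD79B, a chain of the B cell receptor complex, rose to 524 ± 23.5 in knockout cells, against 73.0 ± 23.6 in control cells (limma-trend adjusted p = 1.05e-11), and PAX5, a B cell factor that t(8;21) leukaemia cells are known to express, rose to 1162 ± 110, against 838 ± 121. Of 11 dendritic cell markers 2 were tested, with FLT3 lower at -0.95 and ZBTB46 higher at 0.56, and sums of 562 to 576 in knockout and 716 to 802 in control libraries. Of 12 monocyte markers 3 were tested, with LYZ and CSF1R higher and VCAN lower, and sums of 201 to 246 in knockout and 113 to 189 in control libraries. LYZ, lysozyme, was listed at 0 in control 3. Of 8 T and NK cell markers 2 were in the table, CD3D, which rose by 0.42, and CD2, at 0 in every control library, with sums of 1265 to 1517 in knockout and 1015 to 1059 in control libraries. Their part in the levels of the class II genes was not tested.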

How the data were processed

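RNA from 6 Kasumi-1 libraries was poly-T selected and made into directional NEBNext libraries, per the labels' protocols. The submitters' processing notes name HISAT2, DESeq2 and hg38, with no gene counter or strand setting given in the sources used here. The authors deposited a normalized signal per library, read counts divided by 1 size factor (0.959 to 1.07), and all values came out as whole reads within 0.001. Knockout 2 and control 3 had size factors so near 1 that whole reads there are less certain. The authors deposited a log2 fold change per gene with its p-value, raw and adjusted. The deposited gene length in bases equals the summed exons of GENCODE release 29 for the 6 genes.

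Genes averaging 10 or more (7516 of 7983) were fitted on log2(value + 1) with limma-trend 3.58.1 (R 4.3.3). The test was two-sided, with Benjamini-Hochberg adjustment over 19860 genes, the number behind the authors' adjustment, and called below 0.05. The table was already selected for difference by the authors' test of these libraries, and the spread that limma pools comes from selected genes. Log2 fold changes understate the change of low genes. The 6 genes, lists and rules were chosen with earlier results of these data known. Named genes were up to 4 called genes per list, by size of change, among those averaging 50 or more, every listed class II gene and promoter factor, and the 3 nearest genes on each side, apart from 1 gene that is not reported here. Replicate libraries stood further apart than counting noise allows (chi-square per degree of freedom 3.97 to 13.7), so none was treated as one library deposited again, which does not show separate cultures. Whole reads were also tested with edgeR 4.0.16 (quasi-likelihood) and DESeq2 1.42.0. The fit was checked on simulated counts. Intervals cover counting error only.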

Additional observations from a re-analysis of the deposited data

How the results depend on the processing

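The 6 genes kept their direction under every alternative tried, which were TMM and upper-quartile scaling, other filters and pseudocounts, edgeR, DESeq2, the authors' deposited values, a replicate block, leaving out each library and removing the median log2 fold change of neighbours. With a minimum mean of 50, HLA-DPB1 and HLA-DMB had no value. With a pseudocount of 5 the log2 fold changes were -4.27 for HLA-DRA, -2.16 for HLA-DPB1 and 1.69 for HLA-DMB, since a larger pseudocount shrinks low genes. HLA-DPB1 was at -3.31 with edgeR, -3.36 with DESeq2 and -3.36 in the authors' deposited table. Removing the median of neighbouring genes moves the median of all genes by -0.137 on the log2 scale, by construction. With it removed, CD74 was at 0.96 and CIITA at -1.13, the table had 2257 higher genes in place of 3557, and coactivators lower numbered 5, interferon-route genes higher 1, lineage factors higher 1, processing genes lower 1, turnover genes higher 1 and lower 0, and CD74 partners higher 0. RFXANK (-0.040), CREB1 (0.27) and AP2B1 (0.20) changed sign there, and the cause was not tested. With upper-quartile scaling 1 interferon-route gene was higher and 1 processing gene lower. With no filter 5 lineage factors were higher, because more genes were tested, and with a minimum mean of 50 no costimulatory gene was lower (0), because fewer were. The paired promoter form was in 2.49% of promoters with a gap of 20 to 40 bases.

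Leaving out a library gave -0.83 to -0.36 for HLA-DPA1, -6.33 to -5.37 for HLA-DRA and 2.15 to 3.13 for HLA-DMB, 1 to 2 interferon-route genes higher, 0 to 1 processing genes lower and 0 to 1 CD74 partners higher. Over the pathway lists, 28 to 31 genes were higher in place of 32 and 20 to 24 lower in place of 24. No pairing by replicate number was seen: deviations of same-numbered libraries correlated at 0.0086, -0.0033 and -0.050. No library correlated best with its own number. With 3 libraries per group this cannot exclude a pairing. With the replicate block 3569 genes of the table were called higher and 3522 lower, and 32 and 24 in the pathway lists. Depth limits HLA-DRA, HLA-DPB1, HLA-DMB and HLA-DQA1, each with 10 reads or fewer over one group.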

Other observations

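A few genes next to this pathway were in the table at values too low to be tested, and they were named after their values were seen. IRF8, a myeloid and dendritic cell transcription factor, read 22.9, 12.9 and 18.7 normalized counts in the knockout libraries, against 0, 0.97 and 0 in the control libraries. SPIB, an ETS factor of B cells and plasmacytoid dendritic cells, read 16.7, 7.94 and 12.1 in the knockout libraries, against 4.09, 1.94 and 1.98 in the control libraries. LGMN, an endosomal protease, read 4.17, 9.93 and 3.74 in the knockout libraries, against 0 in each control library. In these 3 genes every knockout library was above every control library. The same held for 48.0% of all tested genes, in a table selected for difference. SOCS1, an inhibitor of interferon signalling close to CIITA on chromosome 16, went the other way, with 1, 0 and 0 reads in the knockout libraries, against 2, 4 and 12 in the control libraries.

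HLA-DPA3, a pseudogene of the HLA-DP alpha chain, held 24, 11 and 17 reads in the knockout libraries, against 1, 0 and 0 in the control libraries. Its intact counterpart HLA-DPA1 had reads in every library of both groups. Reads shared with HLA-DPA1 could be counted to either gene, which leaves both uncertain. HLA-W, a class I pseudogene, overlapped between groups, with 4, 24 and 23 reads in the knockout libraries, against 0, 5 and 8 in the control libraries. HLA-T, another class I pseudogene, held 0, 0 and 1 reads in the knockout libraries, against 11, 1 and 5 in the control libraries.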
